A study of Mus musculus with 6 samples.

Results

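The nuclear-encoded genes of the respiratory chain are the 82 genes whose symbols in the expression tables start with Nduf, Uqcr, Cox4 to Cox8 or Atp5, or are Sdha, Sdhb, Sdhc, Sdhd or Cyc1, and whose level averaged 1 TPM or more across the 6 libraries. TPM is a transcript abundance: reads divided by transcript length and scaled to the same total in every library. The assembly factors named Ndufaf, the gene Ndufa4l2 and rows named as pseudogenes were left out. The symbol rule alone took 85 of 35857 gene rows, of which 3 were under the filter, and 14994 genes in all passed the filter and were tested. By complex, the members were 36 genes of complex I, 4 of complex II, 9 of complex III, 16 of complex IV, 15 of complex V, and 2 genes (Atp5s and Atp5sl) that carry an ATP synthase symbol but encode no subunit of it. Ndufa4, once counted to complex I, was placed in complex IV.

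The respiratory chain of the inner mitochondrial membrane passes electrons from NADH (at complex I) and succinate (at complex II) through ubiquinone, complex III and cytochrome c to oxygen at complex IV. The protons pumped along the way drive complex V, the ATP synthase. Most subunits are encoded in the nucleus and imported, while a few, among them the catalytic core of complex IV, are encoded in mitochondrial DNA. No mitochondrially encoded gene was found among the gene rows, so these subunits were not analysed here. In the brain the chain supplies most of the ATP that neurons spend on ion pumping, and its demand grows as the cortex matures after birth.

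The tissue was cerebral cortex at postnatal day 7, from mice of the C57BL/6 strain, and its polyadenylated RNA was sequenced on the Ion Proton from 3 brains with the genotype Qk-/- (knockout) and 3 brains labelled wild type (control). Quaking, the product of Qk, binds RNA in glia and neural progenitors, and the series is titled as a study of how neural stem cells switch to gliogenesis. Which exons were removed, and in which cells, is not given in the sources used here. Qk was at 14.6, 15.2 and 15.4 TPM in the knockout libraries, against 36.5, 43.2 and 41.3 TPM in the control libraries, a log2 change of −1.36 (limma, adjusted p = 0.000855). Neuronal markers were abundant in all libraries: 6 of them summed to 1652 to 1750 TPM in knockout and 1594 to 1660 TPM in control libraries. The number of reads behind each TPM is unknown.

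No member passed the test, in either direction. With limma on log2(TPM + 1), 0 of 82 members had an adjusted p under 0.05, where 0.387% of all tested genes were called. At an unadjusted p under 0.05 there were 7 members, 5 higher and 2 lower in the knockout, which is 8.54% of the members, against 8.72% of all tested genes (3.42% higher and 5.30% lower). Knockout and control values did not overlap for 5 members that were higher and 2 that were lower in the knockout, again 8.54%, where 14.2% of all tested genes had groups that did not overlap (5.20% higher and 8.98% lower). The median log2 change of the members, knockout minus control, was 0.01 and that of all tested genes was −0.03. Of the members, 43 had a positive and 39 a negative change.

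Under this fit, the data also bound the size of a change. The 95% interval of the log2 change lay within 0.5 of 0 on either side for 74 of the 82 members (90.2%) and for 63.6% of all tested genes. That is a change of less than 1.41-fold in TPM + 1, and for low members the bound in TPM is wider. The 8 members whose interval reached further were Cox7a1, Cox7a2, Cox6a2, Cox6b2, Ndufa1, Ndufa2, Ndufb4 and Ndufb7. These intervals were not adjusted for the number of genes. They also rest on a fit whose variance follows the level of the gene (a variance trend). Without the trend, the unadjusted limma p of Cox7a2 was 0.0157 instead of 0.00451 at the same log2 change. The members were abundant, with a median level of 346 TPM against 18.1 TPM for all tested genes. Their median SD of log2(TPM + 1) within a group was 0.116, against 0.149 for all tested genes. Other abundant lists, read further on, had a similar or lower spread. The 17 glycolysis genes had a median level of 351 TPM, a median SD of 0.0852 and 88.2% of intervals within 0.5. For 12 markers of the mitochondrial membranes and matrix these were 221 TPM, 0.0934 and 100%. For 17 TCA cycle genes they were 134 TPM, 0.116 and 88.2%. In the neighbouring lists of lower level the median SD was 0.132 to 0.187. Among the 75 members with a mean of at least 100 TPM, the ratio of the knockout mean to the control mean ran from 0.795 for Ndufb7 to 1.26 for Cox7a2. The plot of the changes shows the intervals grouped by complex.

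**Figure D1:**
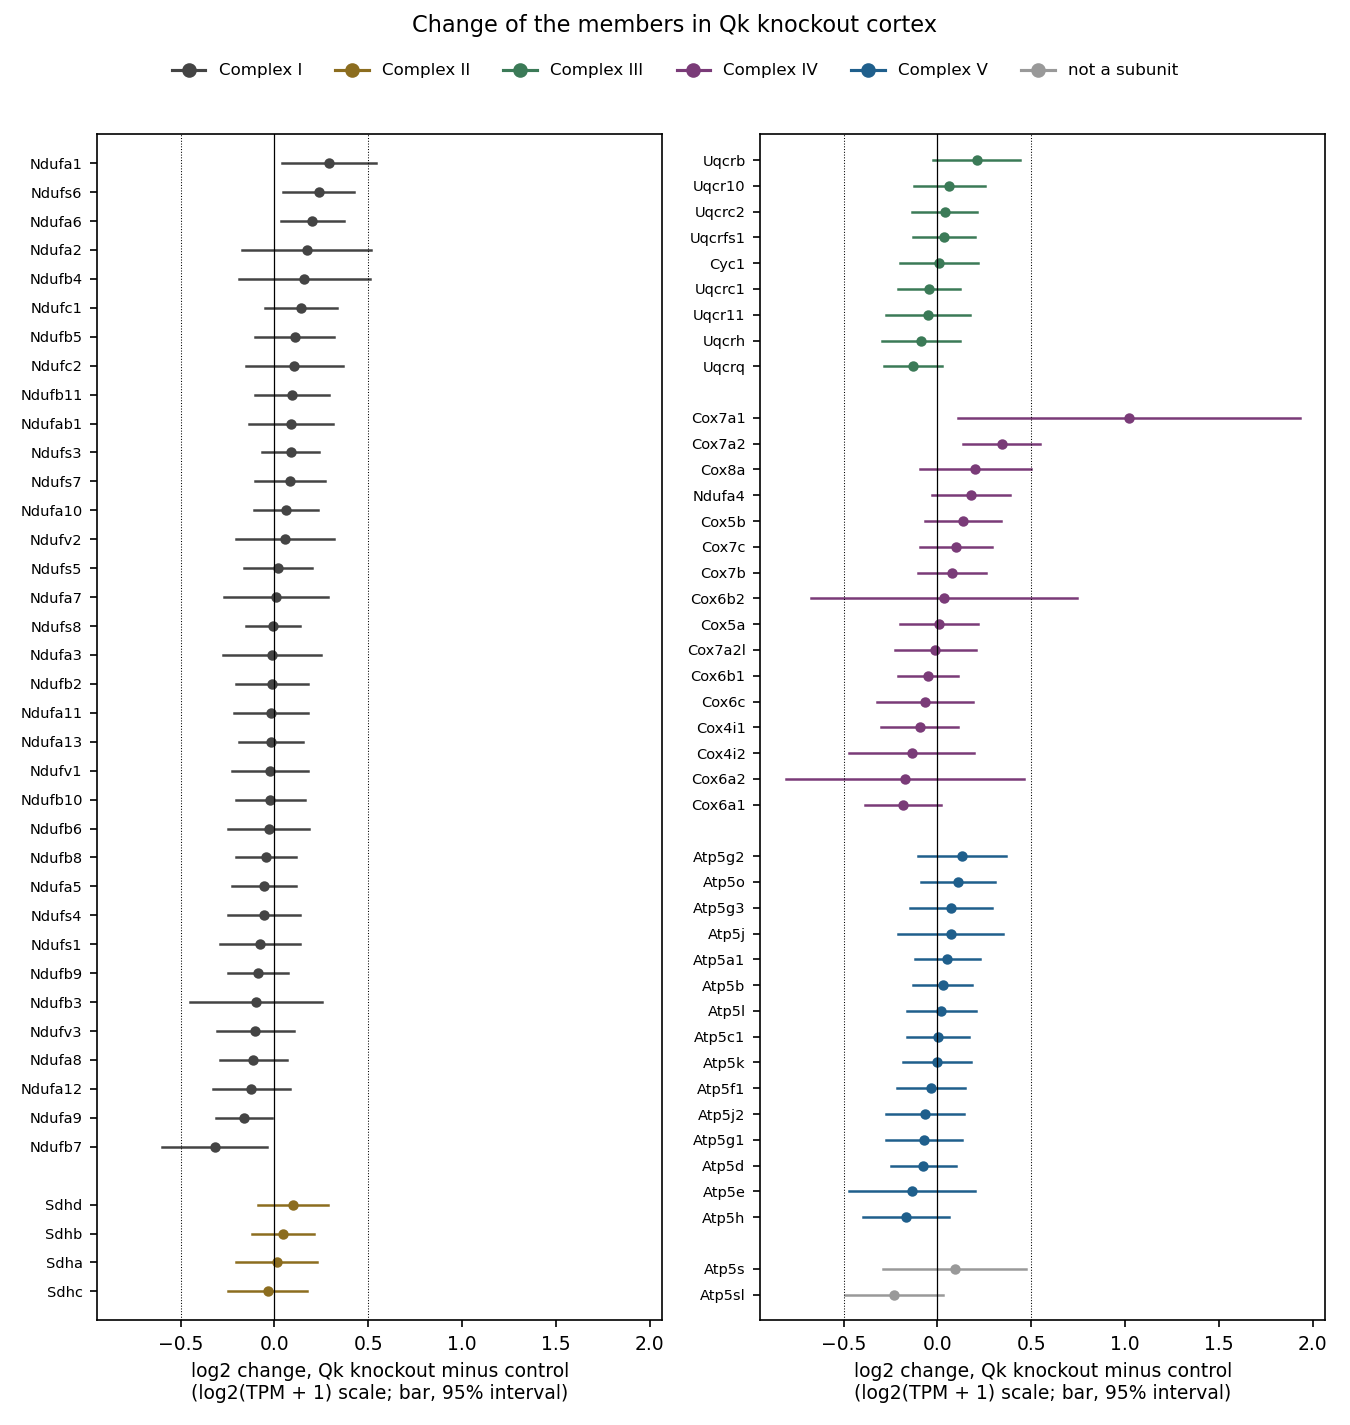
Log2 change of 81 of the 82 members (points; x axis, knockout minus control on the log2(TPM + 1) scale) with its 95% interval (bars), grouped by complex; dotted lines mark changes of 0.5 in either direction. The intervals of 73 of the plotted members lie between the dotted lines, and the widest belong to the low genes Cox7a1, Cox6b2 and Cox6a2.

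The complexes were not at the same level. Median levels over the members were 296 TPM in complex I, 228 TPM in complex II, 386 TPM in complex III, 553 TPM in complex IV and 642 TPM in complex V. Within complex I the highest member was 9.77 times the lowest, and within complex III 4.35 times, although the members of a complex are built in at fixed ratios. Complex IV held the most abundant member, Cox6a1 at a mean of 2036 TPM, and also the lowest, Cox7a1 at 4.42 TPM. The order of the levels was much the same in both genotypes: across the 82 members, which share the same 6 libraries, the Spearman correlation of the knockout mean with the control mean was 0.993.

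**Figure D2:**
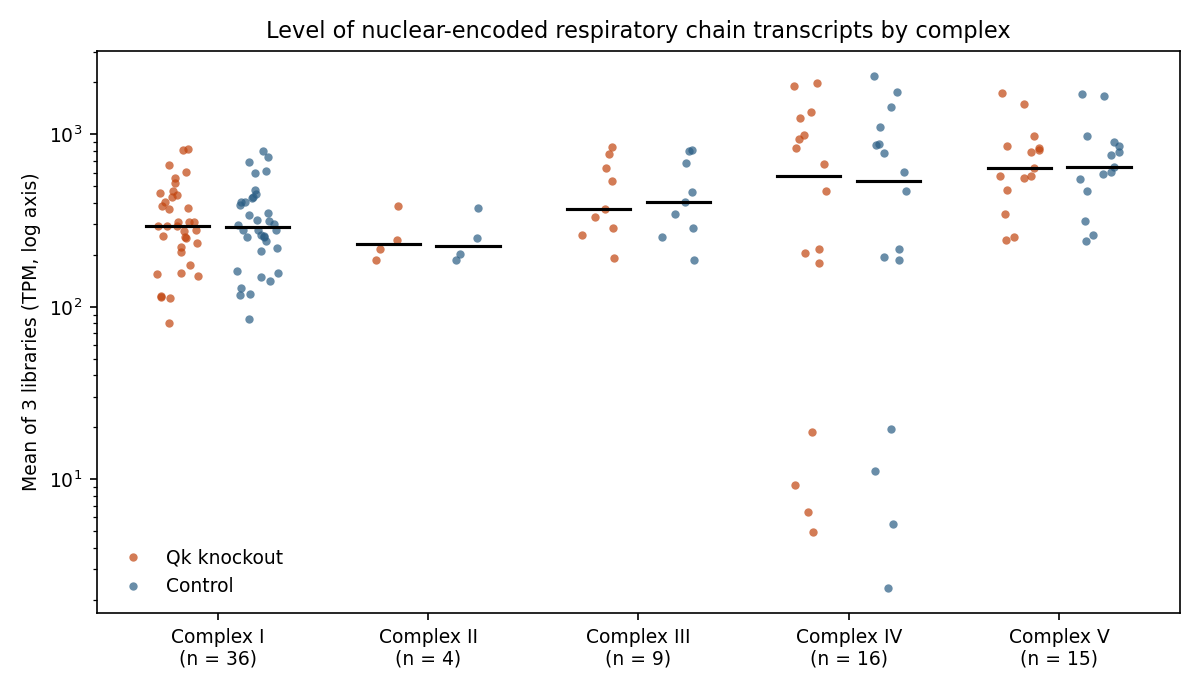
Mean TPM of each member (points, log axis) in the 3 knockout libraries and the 3 control libraries, by complex, with the median of the complex as a black line. In each complex the knockout and control points cover similar ranges, and 4 members of complex IV sit far below the rest.

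Summed over its members, each complex took close to the same share of both groups of libraries. All 82 members together summed to 40498, 38387 and 40043 TPM in the knockout libraries and to 40226, 38652 and 38869 TPM in the control libraries. That is 3.84% to 4.05% and 3.87% to 4.02% of the TPM of all listed genes, among which no mitochondrially encoded gene was found. Complex I summed to 12142 ± 245 TPM in knockout and 11936 ± 216 TPM in control cortex (SD, n = 3 each). Complex II summed to 1033 ± 43.3 and 1013 ± 81.9 TPM, complex III to 4235 ± 78.7 and 4232 ± 115 TPM, complex IV to 11013 ± 321 and 10689 ± 224 TPM, and complex V to 11174 ± 486 and 11327 ± 633 TPM, in knockout and control cortex. The groups overlapped in each of these sums, and the ratio of the means ran from 0.986 in complex V to 1.03 in complex IV. In whole tissue, fewer cells of a type and less RNA per cell cannot be told apart.

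**Figure D3:**
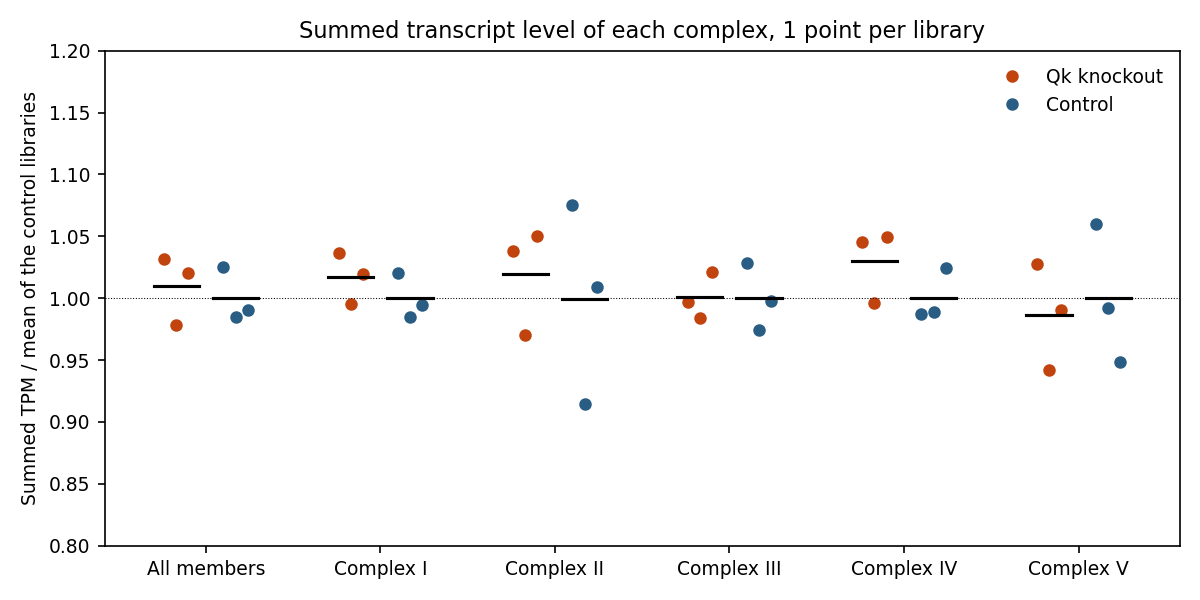
Summed TPM of all members and of each complex in each library (points), divided by the mean of the 3 control libraries, with the group mean as a black line; the y axis runs from 0.8 to 1.2. Knockout and control points overlap in every column, and complex II has the widest spread.

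Complex I takes electrons from NADH. None of its 36 members passed the test; 3 were higher and 2 lower at an unadjusted p under 0.05 (13.9%, against 8.72% of all tested genes), and the median log2 change was −0.01. Ndufs3, a subunit of the electron-carrying core, was at 367, 378 and 369.7 TPM in knockout and at 364, 356 and 330.2 TPM in control libraries, so the groups were separated by a few TPM (log2 change 0.09, adjusted p = 0.772). The 29 accessory subunits, which surround the core, ranged from −0.32 to 0.29.

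Accessory subunits held the 5 members of complex I at an unadjusted p under 0.05. Ndufs6, a zinc-binding subunit of the matrix arm, was at 414, 499 and 457 TPM in knockout libraries and at 406, 378 and 377 TPM in control libraries. The groups did not overlap, by a margin of a few TPM (log2 change 0.24, SE 0.0832, adjusted p = 0.446). Ndufa6, a subunit that holds the acyl carrier protein Ndufab1 to the complex, was at 314, 293 and 273 TPM in knockout and at 246, 259.5 and 258 TPM in control libraries (log2 change 0.20, adjusted p = 0.467). All knockout libraries were above all control libraries. Ndufa1, a small membrane subunit encoded on the X chromosome, was at 175, 147 and 203 TPM in knockout and at 145, 137 and 144 TPM in control libraries, with knockout replicate 2 close to the controls (log2 change 0.29, adjusted p = 0.491).

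The remaining members of that kind were lower in the knockout. Ndufb7, a subunit on the side of the intermembrane space, was at 197, 229 and 197 TPM in knockout and at 309.8, 220.3 and 254 TPM in control libraries. Control replicate 1 was high and the groups overlapped (log2 change −0.32, adjusted p = 0.496). Ndufa9, which binds NADPH where the 2 arms of the complex meet, was at 110.5, 117 and 117 TPM in knockout and at 128, 126 and 132 TPM in control libraries, without overlap (log2 change −0.16, adjusted p = 0.519). Ndufa1, Ndufb7, Ndufa9 and Ndufs3 were chosen after their values were seen. The 3 most abundant members of the complex overlapped between the groups: Ndufa7 was at 806 ± 82 and 805 ± 132 TPM, Ndufb4 at 818 ± 86.7 and 742 ± 159 TPM, and Ndufb8 at 665 ± 34.4 and 686 ± 24.3 TPM in knockout and control cortex (SD, n = 3 each).

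**Figure D4:**
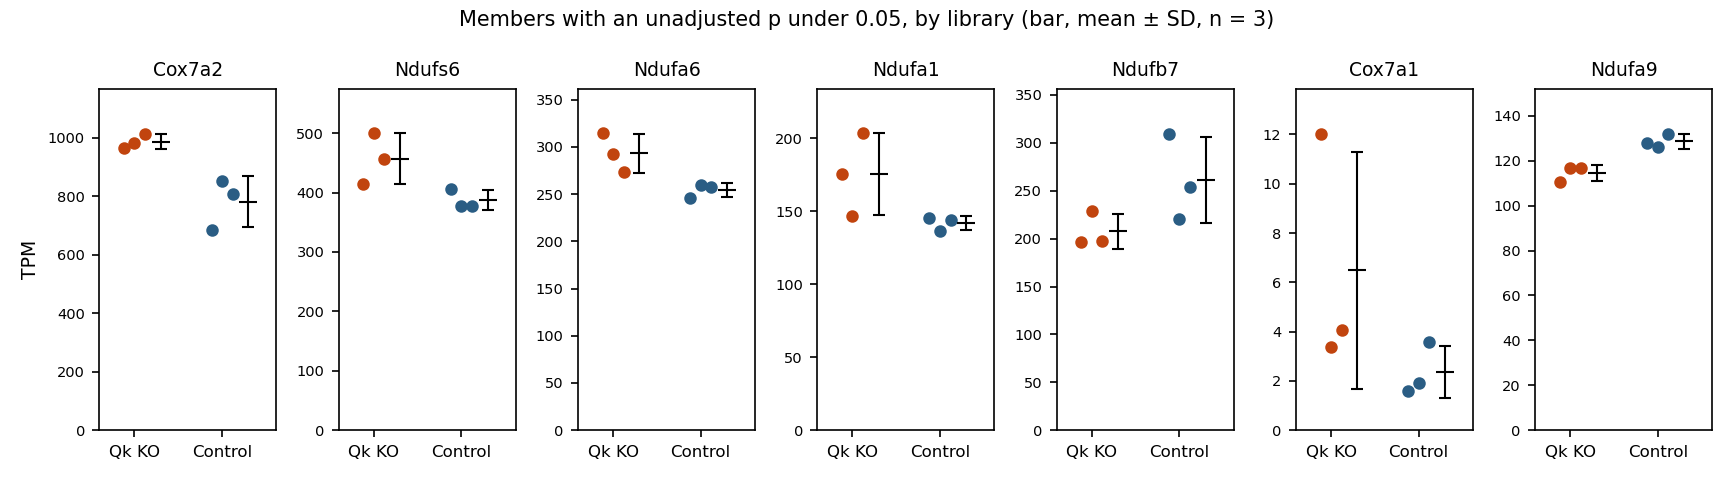
TPM in each library (points) with mean ± SD (bars, n = 3) for the 7 members with an unadjusted p under 0.05, knockout left of control; each y axis starts at 0. The groups do not overlap for Cox7a2, Ndufs6, Ndufa6, Ndufa1 and Ndufa9, and the mean of Cox7a1 in knockout cortex rests on replicate 1.

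Complex II, succinate dehydrogenase, is also an enzyme of the TCA cycle and has no subunit from mitochondrial DNA. None of its 4 genes passed the test. Sdha, the flavoprotein that oxidizes succinate, was at 188 ± 12.8 TPM in knockout and 186 ± 21.4 TPM in control cortex, and Sdhb, the iron-sulfur subunit, at 386 ± 22.3 and 373 ± 15.7 TPM (SD, n = 3 each). The membrane anchors were at 243 ± 12.6 and 250.1 ± 28.2 TPM for Sdhc and at 216 ± 4.62 and 203 ± 20.0 TPM for Sdhd in knockout and control cortex. Their log2 changes ran from −0.03 for Sdhc to 0.10 for Sdhd, with adjusted p of 0.799 or more. All 4 genes were lowest, within the controls, in replicate 2.

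Complex III passes electrons from ubiquinol to cytochrome c. None of its 9 members passed the test, and none had an unadjusted p under 0.05. Uqcrb, which helps form a ubiquinone binding site, had the smallest p of the complex, with 532, 488 and 583 TPM in knockout and 421, 527 and 441 TPM in control libraries (log2 change 0.21, adjusted p = 0.616). The groups overlapped through control replicate 2. Uqcrq, another small membrane subunit, was at 370.0, 359.7 and 375 TPM in knockout and at 381, 404 and 426 TPM in control libraries, without overlap (log2 change −0.13, adjusted p = 0.651). The redox subunits Cyc1 (cytochrome c1) and Uqcrfs1 (the Rieske iron-sulfur protein) had log2 changes of 0.01 and 0.04. Of the most abundant members, Uqcr10 was at 845 ± 23.5 and 811 ± 76.4 TPM, Uqcr11 at 772 ± 69.9 and 800.3 ± 87.7 TPM, and Uqcrh, the hinge protein that binds cytochrome c1, at 641 ± 46.7 and 683 ± 66.2 TPM in knockout and control cortex (SD, n = 3 each).

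Complex IV, cytochrome c oxidase, held the member with the smallest p of all 82, Cox7a2. Cox7a2 encodes the subunit VIIa form found in most tissues. It was at 964, 981 and 1014 TPM in the knockout libraries and at 685, 853 and 806 TPM in the control libraries. All knockout libraries were above all control libraries, and control replicate 1 was the lowest. The mean was 986 ± 25.5 TPM in knockout and 781 ± 86.6 TPM in control cortex (SD, n = 3 each), 1.26 times as high in the knockout, with a log2 change of 0.34 (SE 0.0903, 95% interval 0.14 to 0.55). The unadjusted p was 0.00451 and the adjusted p 0.253, so the difference did not pass the test over all genes. The log2 change was 0.25 without control replicate 1 (adjusted p = 0.393).

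Cox7a2 (Entrez 12866) occupies bases 79755361 to 79759878 of chromosome 9 (GRCm38, minus strand). Its paralog Cox7a1 (Entrez 12865) is the form of heart and skeletal muscle and occupies bases 30184144 to 30186078 of chromosome 7 (plus strand). Cox7a1 was at 12.04, 3.36 and 4.05 TPM in knockout libraries and at 1.60, 1.90 and 3.56 TPM in control libraries. The high value was that of 1 library, knockout replicate 1, and the groups overlapped. The log2 change was 1.02 (95% interval 0.11 to 1.93, adjusted p = 0.509) and 0.53 without that library (adjusted p = 0.748), where the knockout mean was 3.71 TPM and the control mean 2.35 TPM. Cox7a2l, the third member of the family, acts in joining complexes III and IV into supercomplexes, and C57BL/6 mice are known to carry a shortened form of its protein. It was at 185, 235 and 229 TPM in knockout and at 211, 219.9 and 219 TPM in control libraries (log2 change −0.01, adjusted p = 0.983). Of the summed TPM of the 3 genes, Cox7a2 took 83.0%, 80.5% and 81.3% in knockout and 76.3%, 79.4% and 78.4% in control libraries. These shares rest on the same Cox7a2 values, so their lack of overlap is not a second observation.

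The promoters of this pair are shown because the genes encode forms of the same subunit at levels that differ by more than 100-fold. The sequences give the 250 bases before the transcription start in RefSeq (GRCm38.p6), on the strand of the gene, with matches to the motifs named further on in capitals. That of Cox7a2 is chr9:79759854-79760103 (minus strand) and that of Cox7a1 is chr7:30183921-30184170 (plus strand).
Cox7a2: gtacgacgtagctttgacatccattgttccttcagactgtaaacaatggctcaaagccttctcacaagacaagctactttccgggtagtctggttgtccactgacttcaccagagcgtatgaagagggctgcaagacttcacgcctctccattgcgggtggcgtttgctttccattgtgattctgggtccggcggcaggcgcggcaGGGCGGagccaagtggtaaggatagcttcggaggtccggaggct
Cox7a1: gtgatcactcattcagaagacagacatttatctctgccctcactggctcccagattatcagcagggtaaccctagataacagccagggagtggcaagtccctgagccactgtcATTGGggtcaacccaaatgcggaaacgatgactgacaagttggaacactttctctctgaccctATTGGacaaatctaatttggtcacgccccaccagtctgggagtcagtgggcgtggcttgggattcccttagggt
The capitals mark a GGGCGG box in Cox7a2 and a pair of CCAAT boxes, read on the other strand, in Cox7a1. GC content was 54.8% in Cox7a2 and 51.2% in Cox7a1.

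Other subunits of complex IV also come as a widespread and a tissue-restricted form, and the widespread form made up nearly all of the RNA in both genotypes. Cox4i1 was at 1353 ± 98.4 TPM in knockout and 1446 ± 120 TPM in control cortex, against 4.92 ± 0.479 and 5.51 ± 0.574 TPM for Cox4i2, the form of lung and of cells that sense oxygen (SD, n = 3 each). Cox6a1 was at 1907, 1926 and 1876 TPM in knockout and at 2319, 1923 and 2264 TPM in control libraries (log2 change −0.18, adjusted p = 0.612). Control replicate 2 was at the level of the knockouts, so the groups overlapped. Cox6a2, the form of striated muscle, was at 9.25 ± 1.32 TPM in knockout and 11.2 ± 4.83 TPM in control cortex. Cox6b1 was at 831 ± 41.9 and 861 ± 27.3 TPM, and Cox6b2, known from testis, at 18.8 ± 4.32 and 19.7 ± 10.6 TPM in knockout and control cortex (SD, n = 3 each). Cox6b2 was highest, at 31.7 TPM, in control replicate 2, and its log2 change of 0.03 had the opposite sign to the difference of the means.

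**Figure D5:**
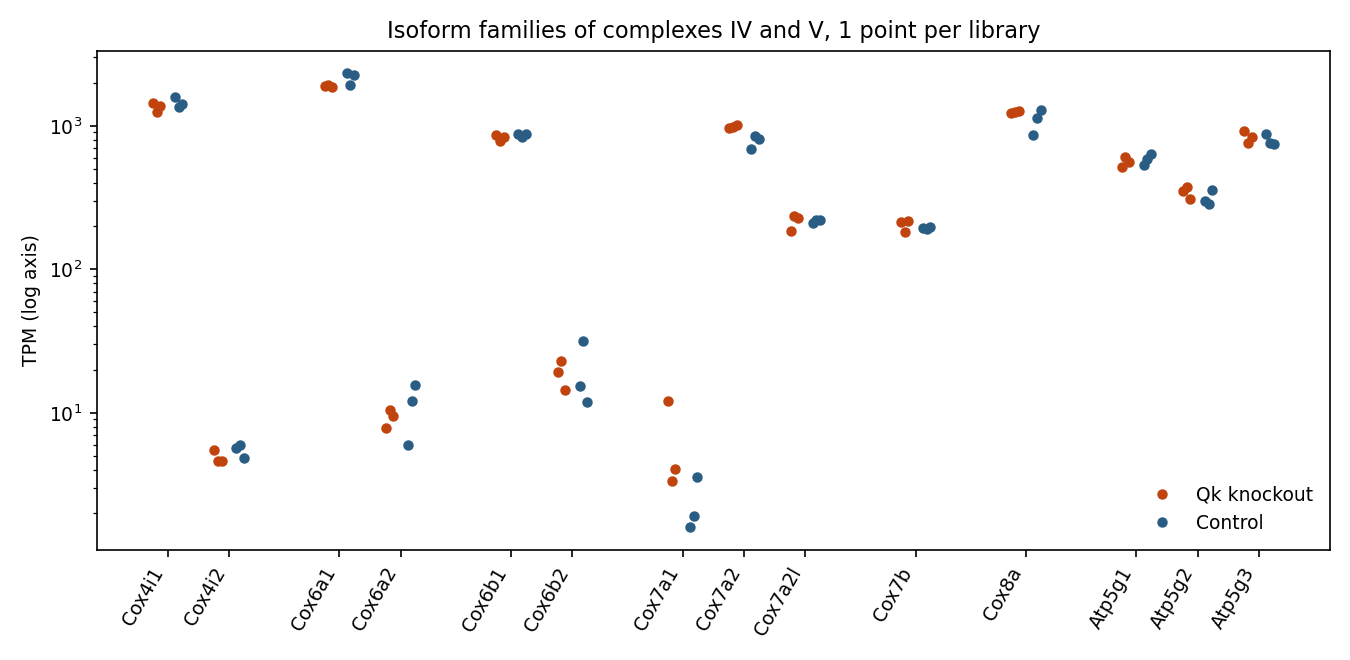
TPM in each library (points, log axis) of the tested genes of 7 isoform families, knockout left of control. The widespread forms Cox4i1, Cox6a1, Cox6b1 and Cox7a2 lie far above Cox4i2, Cox6a2, Cox6b2 and Cox7a1 in all 6 libraries, while the 3 Atp5g genes lie close together.

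The tissue-restricted genes of the families Cox7b and Cox8 were the 3 that matched the symbols but not the filter. Cox8c was listed at 0 in all 6 libraries. Cox8b was listed at 1.22, 0 and 1.02 TPM in knockout and at 2.43, 0 and 0 TPM in control libraries, and Cox7b2 at 0, 0 and 0.60 TPM in knockout and at 0.48, 1.13 and 0.53 TPM in control libraries. Their widespread partners were Cox8a, at 1247 ± 17.5 TPM in knockout and 1098 ± 215 TPM in control cortex, and Cox7b, at 204 ± 18.3 and 193 ± 3.01 TPM (SD, n = 3 each). Cox8a was low in control replicate 1, at 868 TPM.

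The promoters of Cox6a1, Cox6b1 and Cox6b2 show how the windows differ: only that of Cox6a1, of the 5 printed here, holds the palindrome (GCGCA followed directly by TGCGC) that the activator NRF1, nuclear respiratory factor 1, binds. They are chr5:115348959-115349208, chr7:30626115-30626364 and chr7:4753095-4753344, all on the minus strand, with the same marks as above.
Cox6a1: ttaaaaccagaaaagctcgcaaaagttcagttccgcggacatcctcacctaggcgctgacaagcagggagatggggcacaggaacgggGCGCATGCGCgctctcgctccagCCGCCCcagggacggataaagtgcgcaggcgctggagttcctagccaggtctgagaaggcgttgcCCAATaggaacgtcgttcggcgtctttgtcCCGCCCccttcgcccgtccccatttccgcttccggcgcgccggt
Cox6b1: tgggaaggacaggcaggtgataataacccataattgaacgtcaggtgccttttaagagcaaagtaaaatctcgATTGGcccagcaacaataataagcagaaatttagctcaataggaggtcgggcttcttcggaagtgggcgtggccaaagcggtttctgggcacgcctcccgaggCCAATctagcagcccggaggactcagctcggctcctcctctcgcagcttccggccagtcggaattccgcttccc
Cox6b2: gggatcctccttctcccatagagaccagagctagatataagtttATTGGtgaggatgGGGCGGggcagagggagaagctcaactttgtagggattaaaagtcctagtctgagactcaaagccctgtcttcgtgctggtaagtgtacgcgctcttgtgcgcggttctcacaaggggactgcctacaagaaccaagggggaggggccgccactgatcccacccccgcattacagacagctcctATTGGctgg
The GC content of these windows was 62.8% in Cox6a1, 54.0% in Cox6b1 and 54.8% in Cox6b2.

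None of the other members of complex IV had an unadjusted p under 0.05. Ndufa4 was at 2065, 1821 and 2050 TPM in knockout and at 1657, 1928 and 1668 TPM in control libraries (log2 change 0.18, adjusted p = 0.646). It overlapped between the groups through knockout replicate 2 and control replicate 2. Cox5a, Cox5b, Cox6c and Cox7c, further nuclear-encoded subunits, had log2 changes of 0.01, 0.14, −0.07 and 0.10. Over the 16 members of complex IV the median log2 change was 0.02, with 9 positive and 7 negative.

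Complex V, the ATP synthase, had log2 changes from −0.17 to 0.13. None of its 15 members passed the test or had an unadjusted p under 0.05, and for each of the 15 the 95% interval lay within 0.5 of 0. Atp5b, the catalytic beta subunit, was at 1751, 1757 and 1719 TPM in knockout and at 1763, 1684 and 1685 TPM in control libraries (log2 change 0.03, 95% interval −0.13 to 0.18). Atp5a1, the alpha subunit, had a log2 change of 0.05. Atp5h, part of the stalk that holds the catalytic head still, had the smallest p, with 891, 858 and 834 TPM in knockout and 1133, 889 and 899 TPM in control libraries (log2 change −0.17, adjusted p = 0.704). Control replicate 1 stood high and the groups overlapped. Atp5o, the subunit that joins this stalk to the head, was at 976 ± 102 and 899.7 ± 5.89 TPM in knockout and control cortex. Atp5e, a small subunit of the rotor, was at 1606, 1406 and 1479 TPM in knockout and at 2062, 1647 and 1306 TPM in control libraries, with the controls on both sides of the knockouts.

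Atp5g1, Atp5g2 and Atp5g3 encode the same mature protein, the c subunit of the rotor ring, behind different import sequences. All 3 were abundant: Atp5g3 was at 835 ± 78.5 and 794.5 ± 73.2 TPM, Atp5g1 at 559 ± 44.0 and 587 ± 49.0 TPM, and Atp5g2 at 345 ± 33.5 and 315 ± 37.7 TPM in knockout and control cortex (SD, n = 3 each). Atp5g3 gave 48.0 ± 3.99% of the sum of the 3 genes in knockout and 46.8 ± 4.21% in control cortex. The sum was 1739 ± 37.4 TPM in knockout and 1697 ± 49.8 TPM in control cortex, near the level of Atp5b. Of the members that are no subunit, Atp5s was at 15.2 ± 2.35 and 14.3 ± 3.14 TPM and Atp5sl, an assembly factor of complex I, at 31.8 ± 1.35 and 37.7 ± 5.52 TPM (log2 change −0.23, adjusted p = 0.622).

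Genes that build or surround the chain were read from the same fit, and none of their lists held a gene past the test. Of 14 tested assembly factors of complex I, none passed, with a median log2 change of −0.01. Ndufaf7, a methyltransferase needed to assemble complex I, had the smallest p and was at 38.7 ± 1.75 TPM in knockout and 46.3 ± 4.79 TPM in control cortex (adjusted p = 0.489). Of 33 assembly factors of complexes II to V, none passed (median 0.02). Taco1, an activator of the translation of the mitochondrially encoded COX1 subunit of complex IV, was at 12.5, 10.7 and 13.7 TPM in knockout and at 15.8, 23.9 and 20.3 TPM in control libraries. The groups did not overlap, and the log2 change was −0.65 with an unadjusted p of 0.0028 and an adjusted p of 0.200.

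Among 15 genes of the mobile electron carriers, which are cytochrome c, ubiquinone synthesis and electron transfer flavoprotein, none passed (median 0.01). Coq6, an enzyme of ubiquinone synthesis, had the smallest p, at 18.5, 19.1 and 16.3 TPM in knockout and 15.8, 13.8 and 15.3 TPM in control libraries. None of 17 TCA cycle genes passed (median 0.02). The nearest to the threshold was Idh2, the mitochondrial NADP-linked isocitrate dehydrogenase, at 79.6, 80.3 and 78.01 TPM in knockout and at 62.4, 64.2 and 59.8 TPM in control libraries, without overlap (log2 change 0.35, SE 0.0691, adjusted p = 0.108). None of 17 glycolysis genes passed (median 0.01), with Tpi1 at 495 ± 4.78 TPM in knockout and 445 ± 19.2 TPM in control cortex.

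None of 12 tested regulators of mitochondrial biogenesis passed (median −0.02), and Gabpb1, a subunit of nuclear respiratory factor 2, was at 33.1 ± 2.67 and 28.1 ± 2.09 TPM in knockout and control cortex. None of 12 markers of the mitochondrial membranes and matrix passed (median −0.01); Timm23, a channel of protein import, was at 301 ± 29.3 and 333 ± 30.6 TPM. None of 77 genes of the mitochondrial ribosome passed (median −0.003); Mrps6 was at 134 ± 3.60 and 116 ± 4.39 TPM (all SD, n = 3 each). At an unadjusted p under 0.05, the mitochondrial ribosome had 6 genes higher and 2 lower in the knockout, 10.4% of its genes against 8.72% of all tested genes.

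The members shared features that the rule did not use. For each gene the transcript with the longest coding part in the GENCODE annotation was used. Those of the members were short, with a median length of 849 nt against 2944 nt for all tested genes. Their 3' UTRs were short too, with a median of 160 nt against 965 nt. In the 68 members with a promoter in the RefSeq table, the NRF1 palindrome given above occurred in 5 (7.35%), against 2.10% of 11689 tested genes with a promoter, in the window from 250 bases before to 50 bases after a start, on either strand. Those 5 were Atp5g2, Atp5k, Cox6a1, Ndufa11 and Uqcrc1. The YY1 motif AAGATGGCG occurred in 8 members (11.8%), against 3.19%. The ETS motif CCGGAAGT, which nuclear respiratory factor 2 can bind, was in 5 (7.35%), against 8.27%. The GC box GGGCGG was in 28 (41.2%), against 67.7%, the CCAAT box in 30 (44.1%), against 42.7%, and the TATAAA box in 5 (7.35%), against 9.06%. None of these motifs contains another, and a match is a run of letters, not a measured site.

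Quaking binds RNA at ACUAAC or ACUAAU, often beside a further short half-site. The motif was searched in the annotated transcript of each gene with the longest coding part, which may not be the one expressed in cortex. Written with T, ACTAAC or ACTAAT occurred in 18 of the 82 members (22.0%), against 43.5% of 13840 tested genes with a coding transcript. Per kilobase of transcript the motif occurred 0.234 times in the members and 0.217 times in those genes. In the 3' UTR it was found in 10 members (12.2%), against 30.9%, or 0.407 times per kilobase of 3' UTR, against 0.341. The sites of 3 members are shown with the motif in capitals. That of Cox7a2, the member with the smallest p, begins in the last coding bases and covers the stop codon. Ndufab1 has 3 matches, the most of any member, in an annotated transcript of 3479 nt, and the first is given. Sdha has its match in the coding part.
Cox7a2: ccaagaagcagaACTAATgtcgtcatccca
Ndufab1: caaaccaaaaccACTAACtgatgactagtt
Sdha: ggtgggattcccACTAACtacaagggacag
The log2 changes of these genes were 0.34, 0.09 and 0.01, and none of the 18 passed the test.

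Single libraries moved the members together by small amounts. The median deviation of the 82 members from their mean over the 6 libraries was 0.04, −0.07 and 0.03 in knockout replicates 1, 2 and 3, and 0.02, −0.02 and −0.02 in control replicates 1, 2 and 3, on the log2 scale. Over all tested genes, the same median was −0.0110, −0.0236 and 0.0001 in the knockout and 0.0137, −0.0055 and 0.0406 in the control replicates. Knockout replicate 2 was the lowest of the 6 libraries for 25 members, and control replicate 1 the highest for 21. Without knockout replicate 2, 11 members (13.4%) had an unadjusted p under 0.05, against 9.28% of all tested genes in the same fit, and still none passed the test. Markers of other cells also varied between libraries: the summed level of 5 choroid plexus genes was 673 to 1027 TPM in knockout and 753 to 1541 TPM in control libraries, and that of 4 red blood cell genes 3122 to 8250 and 5167 to 9679 TPM. Their defining genes were above 0 in all libraries. The summed level of 5 astrocyte genes was 406 to 452 TPM in knockout and 581 to 623 TPM in control libraries. That gap came mostly from Slc1a3, a glutamate transporter and the only astrocyte gene past the test. It was at 115, 107 and 115 TPM in knockout and 277, 255 and 262 TPM in control libraries. Without Slc1a3, which was left out after its values were seen, the other 4 genes summed to 291 to 337 TPM in knockout and 326 to 361 TPM in control libraries, and the groups overlapped. Those 4 genes did not move alike. Slc1a2 was lower in the knockout, at 36.8 to 44.3 TPM against 48.8 to 69.7 TPM in control libraries (limma, adjusted p = 0.185). Gfap was also lower, at 137 to 168 TPM against 172 to 184 TPM (limma, adjusted p = 0.600). Both were without overlap, while Aqp4 overlapped. Aldh1l1, a folate enzyme of astrocytes, was the other way, at 71.5 to 80.9 TPM in knockout and 50.4 to 63.8 TPM in control libraries, without overlap (adjusted p = 0.139). The summed level of 5 oligodendrocyte lineage genes was 221 to 229 TPM in knockout and 265 to 277 TPM in control libraries; Mbp and Gpr17 fell and Olig2 rose. The part of any of these in the values of the members was not tested.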

How the data were processed

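Polyadenylated RNA of 6 mouse cortices was sequenced. Each deposited file lists TPM by gene for 1 library; STAR 2.4.1d, RSEM 1.3.0, mm10 and GRCm38.p4 are named, without order, in the submitters' processing notes, while the sources used here give neither the annotation nor the strand setting. TPM keeps no read depth, so no counting interval was made. RSEM shares reads among similar transcripts, so values of members with close copies or processed pseudogenes are uncertain. Groups and replicate numbers came from the titles, and the labels name separate brains.

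Genes averaging 1 TPM or more were fitted as log2(TPM + 1), without further scaling, with limma 3.58.1 in R 4.3.3 (eBayes with trend, group as the only term). Its p-values (both directions) were corrected over all 14994 genes after Benjamini and Hochberg, with a threshold of 0.05. They set the difference of the groups against the spread between these brains, with each gene's variance drawn toward the trend over all genes. Fold changes on this scale understate those of low genes. Length, GC content (97.27% of tested genes matched), coordinates and transcripts came from GENCODE M21 on GRCm38, and promoters from RefSeq. The transcript of a gene was that with the longest coding part, then the longest, whether or not cortex expresses it. Alternatives were other pseudocounts, no filter, other scalings, no variance trend, a replicate block, a length and GC correction, and leaving out each library.

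The members and lists were chosen with earlier results of these data known. Named genes were Qk, in each complex the 3 of highest mean TPM and the 2 of smallest p, all isoform families, complex II, and the gene of smallest p in each list of neighbouring functions; other members were named after their values were seen. The summaries count 1 member whose own values are not reported here. The fit was tested on simulated data.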

Additional observations from a re-analysis of the deposited data

How the results depend on the processing

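In each of 17 other settings of the analysis no member tested passed the threshold (Cox7a1 was not tested at a mean of at least 5 TPM), and the smallest adjusted p of any member lay between 0.191 and 0.495. Cox7a2 had the smallest p of the members in 14 of the 17, and its log2 change stayed between 0.25 and 0.41. The count of all genes past the threshold was 58; it was higher, at 74, with a filter of 5 TPM and, at 72, with robust eBayes, and it was 37 with no filter on low values, 28 without the variance trend, 38 under a replicate block, and 29 under that block joined to a length and GC correction. Leaving out 1 library gave 20 to 53 genes, from fewer samples. The count of members at an unadjusted p under 0.05 was 1 without the variance trend (1.22%, against 8.66% of all genes in that fit). It was 2 to 11 after leaving out 1 library: 2 (2.44%, against 7.44% of all genes) without knockout replicate 1 and 11 (13.4%, against 9.28%) without knockout replicate 2, while the share of all genes ran from 6.88% to 9.28%. The median log2 change of complex I, −0.0101 as reported, was 0.0198 with median-of-ratios scaling and −0.0154 to 0.0411 after leaving out 1 library. Same-numbered libraries hardly deviated together (correlations across genes 0.035, 0.0311 and 0.0134), although each library correlated best with its own number, so the numbers were not taken as pairs; the block changed no call among the members.

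Some log2 changes, none past the threshold, changed sign. As reported, the largest of these were −0.17 for Cox6a2, 0.16 for Ndufb4 and −0.14 for Atp5e. The log2 change of Cox7a2l was 0.0190 with median-of-ratios scaling and 0.0096 with quantile normalization, the log2 change of Atp5b −0.0261 with quantile normalization, and the log2 change of Ndufa7 −0.0096 with length and GC correction, with and without the block. After leaving out 1 library, the ranges were −0.0736 to 0.0961 for Cox7a2l, −0.0639 to 0.1398 for Ndufa7, −0.0573 to 0.1011 for Sdha, −0.1306 to 0.0233 for Sdhc, −0.2513 to 0.4256 for Cox6b2, −0.5298 to 0.0905 for Cox6a2, −0.3020 to 0.0274 for Atp5e, −0.1244 to 0.0350 for Uqcr11, −0.0089 to 0.1276 for Uqcr10 and −0.0320 to 0.2610 for Ndufb4. The cause was not tested. With 3 brains per group and unknown depth, changes smaller than the intervals given could not be resolved.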
